A study of Mus musculus with 33 samples.

Results

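The transcriptome of mouse P19 cells on day 3 of retinoic acid treatment (D3RA) was compared with that of undifferentiated P19 cells (D0), gene by gene, over all 14717 genes of the deposited table. The comparison was defined by the sample titles and uses 6 of the 33 samples of the series, 3 RNA libraries of D3RA and 3 of D0, out of 15 RNA libraries in all. P19 is an established embryonal carcinoma line, a tumour-derived line that resembles the pluripotent cells of the early embryo and can be turned towards neural or mesodermal fates in culture. For D3RA, cells were treated with 1 µM all-trans retinoic acid and allowed to aggregate into embryoid bodies in bacteriological dishes for 2 days, then moved to flasks with maintenance medium. D0 cells were grown at low density in the maintenance medium, which contained charcoal-stripped serum, and the labels give no aggregation step for them. The 3 D3DMSO libraries, which went through embryoid bodies with 1% DMSO in place of retinoic acid and were also taken on day 3, served as a second group for comparison. Retinoic acid, aggregation and time in culture all separate D3RA from D0 and cannot be told apart in that comparison. D3RA and D3DMSO share aggregation and day but differ in both retinoic acid and DMSO. A difference between those 2 groups can therefore come from either agent. No group carries a transgene or deletion, per the labels. The design text calls the replicates biological but the labels do not say that they were separate cultures. The p-values thus measure the spread between libraries within a group, pooled over all 15 RNA libraries and not only those of D3RA and D0.

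Pluripotent cells hold differentiation in check with a circuit of transcription factors around Pou5f1 (Oct4), Sox2 and Nanog, supported by Nodal and FGF signals. Retinoic acid enters the nucleus, binds the retinoic acid receptors (Rara, Rarb, Rarg), which pair with retinoid X receptors on direct repeats of a hexamer in DNA, and switches on their target genes, among them the receptor Rarb itself, the retinoic acid-degrading Cyp26 enzymes and the Hox genes. In the embryo, the same signal patterns the hindbrain and spinal cord, and aggregated P19 cells exposed to it are a classical model of neural differentiation.

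The classical retinoic acid response element is a direct repeat of the hexamer spaced by 5 bases (DR5). Of the retinoic acid target list of 28 genes, 15 had a promoter window in RefSeq's table (GRCm38.p6, from 250 bases before to 50 bases after the start site), and the windows of 2 of them held a DR5, those of Rarb and Cyp26a1. Both are shown because both genes were called higher in D3RA, with the 2 hexamers of the repeat in capitals and each sequence written 5′ to 3′ along the gene's own strand.
Rarb promoter, chr14:16575427-16575726, minus strand: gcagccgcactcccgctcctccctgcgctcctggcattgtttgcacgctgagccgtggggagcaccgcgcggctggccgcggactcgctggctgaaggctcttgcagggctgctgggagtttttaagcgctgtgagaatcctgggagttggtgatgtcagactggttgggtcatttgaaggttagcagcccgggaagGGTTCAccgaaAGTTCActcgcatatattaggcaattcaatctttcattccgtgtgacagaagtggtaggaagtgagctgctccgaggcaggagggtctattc
Cyp26a1 promoter, chr19:37697558-37697857, plus strand: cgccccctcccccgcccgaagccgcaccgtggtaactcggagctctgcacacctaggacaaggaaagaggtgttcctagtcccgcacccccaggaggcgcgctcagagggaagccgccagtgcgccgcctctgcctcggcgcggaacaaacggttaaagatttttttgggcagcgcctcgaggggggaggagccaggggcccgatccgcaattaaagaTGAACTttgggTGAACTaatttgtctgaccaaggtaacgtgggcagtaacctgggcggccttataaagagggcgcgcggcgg
The search accepted the consensus hexamer AGGTCA or its variants, namely AGTTCA as found in both elements, then GGGTCA as a further variant, then GGTTCA as the first hexamer in Rarb, on either strand. The Rarb element ran from 53 to 37 bases before the start site on the gene's strand, and the Cyp26a1 element from 32 to 16 bases before it on the opposite strand. A DR5 of this form was found in 32 of 32851 mouse promoter windows of the same length (0.0974%). A match describes letters in the window and not binding.

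Values are counts per 1000000 counts of scaled library size (CPM), rebuilt from the deposited log2 values as described in the section on processing. Each D3RA library held 3549553 to 9823766 counts and each D0 library 7129180 to 9878744. In 2 of the 3 D3RA libraries, 39.5% and 45.7% of counts fell on 4 genes (Lars2, Gm15564 and 2 unnamed genes), against 1.97% in the other, and in D0 the share was 8.86% to 23.2%. The scaling took this out of the CPM values, and its part in any result was not tested. A gene was called where limma's moderated test gave a Benjamini-Hochberg adjusted p under 0.05 over all genes. The level that 3 counts over a group correspond to, taken here as the limit of detection, was 0.185 CPM in D3RA and 0.112 CPM in D0. Means are given ± SD over 3 libraries and log2 fold changes (D3RA minus D0) ± SE.

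The 4 marker genes set by the design separated the groups in every library, which was the case for 68.2% of all genes. Pou5f1, the POU-domain factor at the centre of the pluripotency circuit, had 0.273, 0.977 and 4.11 CPM in D3RA and 1403, 1339 and 1210.3 CPM in D0. D3RA lay below D0 in every library (log2 fold change -10.14 ± 0.83, adjusted p = 1.3e-08), and within D3RA replicate 3 was the highest. Without that library the log2 fold change was -11.09, and without D3RA replicate 1, the lowest, it was -9.21. Pax6, a paired-box factor of neural progenitors, had 157, 141 and 148 CPM in D3RA and 2.56, 1.42 and 1.42 CPM in D0. Rarb, a retinoic acid receptor and itself a direct retinoic acid target, had 273, 273 and 244 CPM in D3RA and 2.97, 1.89 and 2.74 CPM in D0. The groups did not overlap for either gene (log2 fold change 6.38 ± 0.24, adjusted p = 1.3e-12 for Pax6, and log2 fold change 6.69 ± 0.14, adjusted p = 1.7e-15 for Rarb). Hoxa5, a Hox factor of the posterior hindbrain and cervical spinal cord, had 205, 179.8 and 202 CPM in D3RA and 0 counts in all 3 D0 libraries. With no count in any D0 library, its level in D3RA was at least 1742-fold higher, taking the 3 counts of the detection limit as the most that a count of 0 allows. In a bulk sample, more cells with a transcript and more transcript per cell cannot be told apart, and this holds for every gene below.

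**Figure D1:**
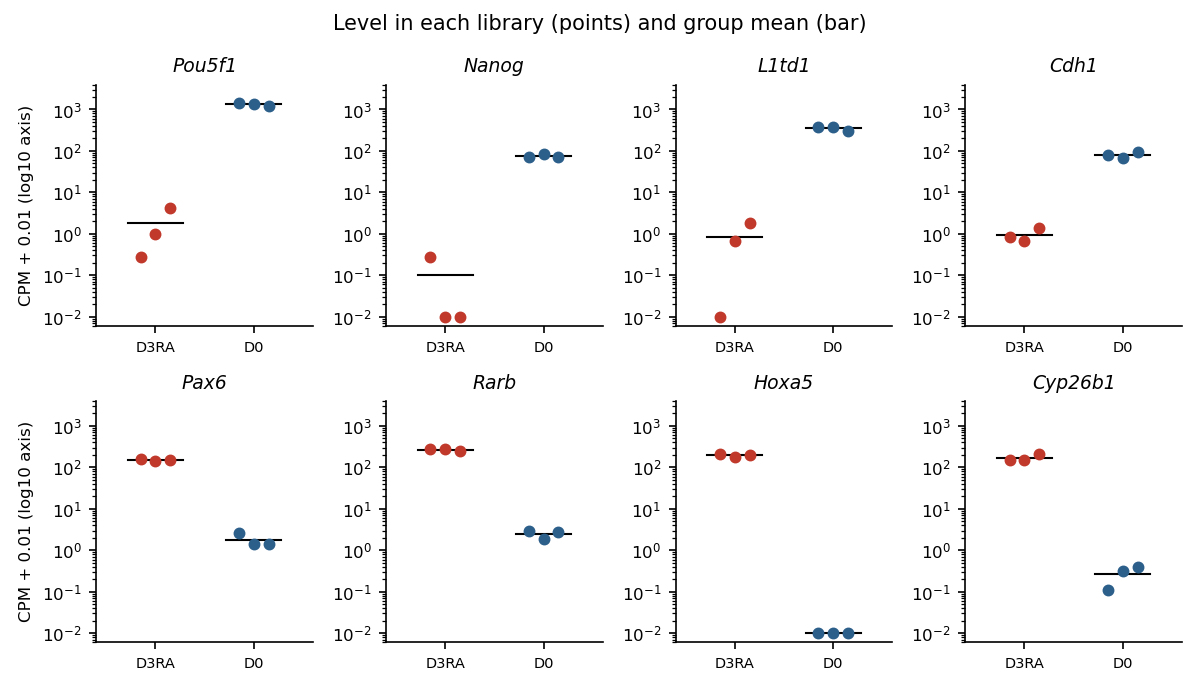
CPM of 8 genes in each library of D3RA (left) and D0 (right) on a log10 axis, with 0.01 CPM added so that libraries without a count can be drawn; bars mark the group means. The 3 pluripotency genes on the top row and Cdh1 lie lower in every D3RA library than in any D0 library, and Pax6, Rarb, Hoxa5 and Cyp26b1 lie higher in every D3RA library.

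Across all genes, 5151 of 14717 (35.0%) were called higher in D3RA and 4996 (33.9%) lower, so 68.9% of genes were called in one direction or the other. A change of at least 2-fold was called for 2378 genes (16.2%) higher and 2103 (14.3%) lower, and these shares are the background for each gene list below. The median log2 fold change of all genes was 0.01. In the other comparison, D3RA against D3DMSO, 4517 genes (30.7%) were called higher and 4619 (31.4%) lower. Against D0, changes of at least 10-fold were called for 467 genes higher and 279 lower in the main fit. The 10-fold counts were not repeated under the alternatives, and which direction held more genes depended on the scaling at smaller changes. Among genes without a single count in the 3 D0 libraries, 18 reached at least 10 CPM in D3RA. Of these, 7 were Hox genes, namely Hoxa2, Hoxa3, Hoxa5, Hoxb2, Hoxb5, Hoxb6 and Hoxb7, and 4 were noncoding genes of the Hox clusters. The others included the homeobox genes Msx3 and Pax7, the neuronal factor Nhlh2, the nicotinic receptor subunit Chrna3 and the neuropeptide gene Sst, which were chosen for mention after their values were seen. In the opposite direction, 3 genes with at least 10 CPM in D0 had no count in D3RA, and 1 of them was Fgf4, the growth factor of pluripotent cells.

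**Figure D2:**
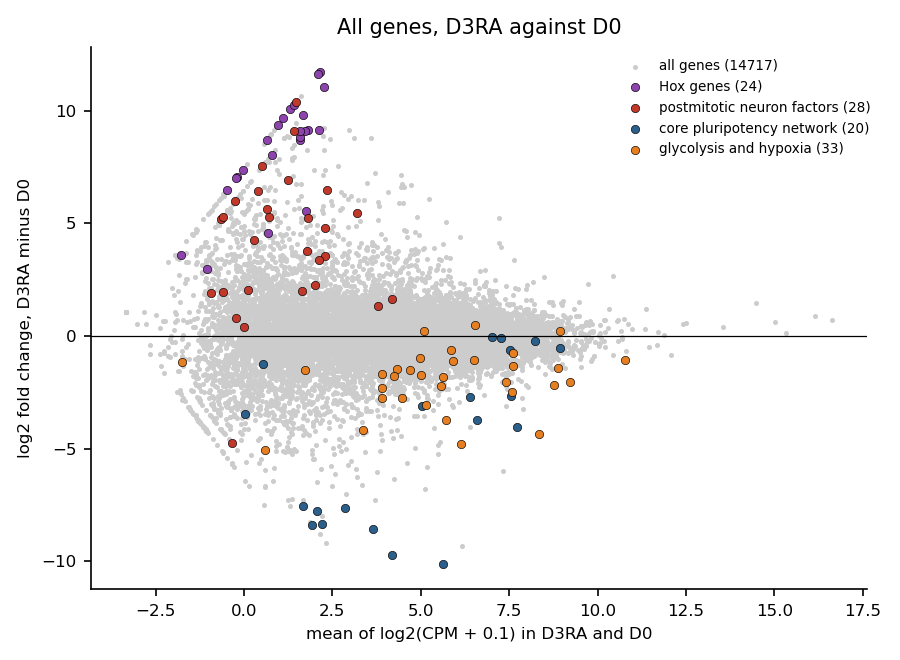
Log2 fold change, D3RA minus D0, against the mean log2 CPM of both groups for 14717 genes, with Hox genes, postmitotic neuron factors, core pluripotency genes and glycolysis and hypoxia genes coloured. Core pluripotency genes lie on the zero line or below it, and Hox genes lie above it.

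The 10 called genes with the greatest fitted increases among named genes with at least 10 CPM were 7 Hox genes (Hoxa5, Hoxb6, Hoxb4, Hoxb5, Hoxa2, Hoxc5 and Hoxb7), the antisense gene Hoxb5os, the Hoxa cluster noncoding gene Hoxaas3 and Nhlh2, which encodes a helix-loop-helix factor found in young neurons. Among the 10 with the greatest decreases were Pou5f1, L1td1, Trh, Vrtn, Nr5a1, Tdgf1, Nanog, Gdf3 and Cyp2b23. L1td1, which derives from a transposon and binds RNA in pluripotent cells, had 0, 0.651 and 1.83 CPM in D3RA and 379, 382 and 308 CPM in D0. Trh, which encodes thyrotropin-releasing hormone, had 1.46, 1.3 and 6.85 CPM in D3RA and 1687, 1609.9 and 1445 CPM in D0. Both were far below D0 in every D3RA library, with the highest D3RA level in replicate 3. Nr5a1, a nuclear receptor better known from steroid-producing tissue, averaged 0.152 ± 0.26 CPM in D3RA and 76.5 ± 1.2 CPM in D0.

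The core pluripotency network fell as a group. Of its 20 measured members, 18 were called lower, 15 of them by at least 2-fold, none was called higher, and the median log2 fold change was -3.59. Over all genes, 33.9% were called lower. Nanog, the homeobox factor of the circuit, had 0.273, 0 and 0 CPM in D3RA and 73.1, 84.6 and 72.4 CPM in D0. Its ratio rests on 1 to 3 counts in D3RA and was 409-fold lower (95% counting interval 139.8 to 1986). Utf1, a chromatin-bound factor under Pou5f1 and Sox2 control, averaged 0.43 ± 0.24 CPM in D3RA and 99 ± 3.2 CPM in D0, and Zscan10, a zinc-finger partner of the circuit, averaged 0.121 ± 0.21 CPM in D3RA and 45.8 ± 3.6 CPM in D0. Both differed by far more than the spread between libraries (log2 fold change -7.62 ± 0.42, adjusted p = 9.3e-11 and log2 fold change -7.53 ± 0.41, adjusted p = 9.4e-11). The co-receptor gene Tdgf1 (Cripto) averaged 0.582 ± 0.37 CPM in D3RA and 226 ± 19 CPM in D0. Sall4, a zinc-finger factor that holds Pou5f1 active, had 28.9, 26.7 and 24.2 CPM in D3RA and 336, 353 and 367 CPM in D0. The fall of Sall4 was smaller (log2 fold change -3.72 ± 0.11, adjusted p = 9.5e-14), and a remainder of its transcript was present in every D3RA library.

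Not all of the network was lost. Sox2, shared by pluripotent cells and neural stem cells, had 146, 135 and 159 CPM in D3RA and 253, 225 and 205 CPM in D0, and was called lower with groups that did not overlap (log2 fold change -0.63 ± 0.16, adjusted p = 0.0026). Lin28a and Lin28b, the RNA-binding proteins that block let-7 maturation, parted: Lin28a averaged 52 ± 3.8 CPM in D3RA and 846 ± 39 CPM in D0 and was called lower (log2 fold change -4.02 ± 0.10, adjusted p = 6.0e-15), whereas Lin28b averaged 150.3 ± 5.5 CPM in D3RA and 158 ± 7.5 CPM in D0 and was not called (log2 fold change -0.07 ± 0.08, adjusted p = 0.4). Trim71, a let-7 target that marks early embryonic cells, averaged 32.9 ± 1.0 CPM in D3RA and 217 ± 14 CPM in D0 (log2 fold change -2.71 ± 0.07, adjusted p = 2.7e-14).

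Genes of primed, epiblast-like pluripotency also fell. Of 15 measured, 12 were at least 2-fold lower and 1 at least 2-fold higher, with a median log2 fold change of -4.12. Dnmt3b, the de novo DNA methyltransferase of the epiblast, had 20.5, 16.6 and 22.8 CPM in D3RA and 1288, 1271 and 1261 CPM in D0. Otx2, which directs the primed state and later forms the forebrain, had 5.56, 3.58 and 5.02 CPM in D3RA and 261, 277 and 263 CPM in D0. Neither gene's groups came near to overlapping (log2 fold change -6.0 ± 0.14, adjusted p = 3.2e-15 and log2 fold change -5.80 ± 0.16, adjusted p = 3.6e-14). The exception by 2-fold was Epha4, an ephrin receptor also used by growing axons, with 176 ± 24 CPM in D3RA and 62.6 ± 0.49 CPM in D0. Sox3, a Sox2 relative shared with neural progenitors, was called higher too, with 31.3 ± 4.9 CPM in D3RA and 17.1 ± 1.1 CPM in D0 (log2 fold change 0.86 ± 0.19, adjusted p = 6.8e-04), a call that was lost with the libraries thinned to the smallest scaled library size.

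The naive pluripotency list was mixed. Of its 16 measured members, 4 were at least 2-fold higher and 7 at least 2-fold lower. Those higher were Nr5a2, Tbx3, Esrrb and Tet2, and apart from Tet2 (71.8 ± 7.0 CPM in D3RA and 22.8 ± 4.3 CPM in D0) all stayed under 10 CPM in both groups. The call of Esrrb was lost without D3RA replicate 1 or 2 or D0 replicate 3 (adjusted p 4.6e-04 to 0.12 over the alternatives). Nr0b1, an orphan nuclear receptor tied to the circuit, averaged 1.7 ± 0.11 CPM in D3RA and 64.6 ± 1.5 CPM in D0 (log2 fold change -5.14 ± 0.44, adjusted p = 2.4e-08). Klf4, a Krüppel-like factor of naive cells, averaged 4.25 ± 2.5 CPM in D3RA and 12.8 ± 1.9 CPM in D0. Lifr, the receptor for leukaemia inhibitory factor, averaged 73 ± 2.5 CPM in D3RA and 153 ± 13 CPM in D0, and its signalling feedback gene Socs3 averaged 14.6 ± 4.4 CPM in D3RA and 45.9 ± 3.1 CPM in D0; both were called lower (log2 fold change -1.06 ± 0.10, adjusted p = 8.6e-08 and log2 fold change -1.68 ± 0.19, adjusted p = 8.9e-07).

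Hairpin loci of the microRNA clusters typical of pluripotent cells were also read in this total RNA, though the libraries do not measure mature microRNAs. Mir302b had 0.0911, 0.326 and 0 CPM in D3RA and 1.13, 0.629 and 0.946 CPM in D0, and Mir291b had 0 counts in all 3 D3RA libraries and 2.05, 1.42 and 2.93 CPM in D0. Mir291b was at least 11.5-fold lower, and the ratio for Mir302b was 7.61-fold lower (95% counting interval 1.9 to 66.3), a call that was lost without D3RA replicate 1 (adjusted p 0.0018 to 0.36 over the alternatives). The mature 3p strands, from RefSeq with the seed (bases 2 to 8) in capitals, share AAGUGC at bases 2 to 7, the core of the seed family that dominates in pluripotent cells.
mmu-miR-302b-3p: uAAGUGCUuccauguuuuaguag
mmu-miR-291b-3p: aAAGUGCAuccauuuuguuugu

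The Nodal and activin pathway, which keeps epiblast cells pluripotent and induces mesendoderm, fell at the level of its ligands and co-receptor. Of 18 measured members, 11 were at least 2-fold lower and 1 at least 2-fold higher (median log2 fold change -2.40). The ligand gene Nodal had 0.455, 0 and 0 CPM in D3RA and 43.4, 41.7 and 37.3 CPM in D0. Its inhibitor and target Lefty1 had 0.546, 1.3 and 0 CPM in D3RA and 78.8, 79.9 and 69.1 CPM in D0. The ligand Gdf3 and the co-receptor Tdgf1 have been given above, and Foxh1, the DNA-binding partner of Smad2, averaged 1.12 ± 0.65 CPM in D3RA and 66.4 ± 5.8 CPM in D0 (log2 fold change -5.89 ± 0.37, adjusted p = 4.7e-10). The signal transducers moved the other way or little. Smad2 averaged 79 ± 2.8 CPM in D3RA and 54.2 ± 0.7 CPM in D0 and Smad3 averaged 94.8 ± 11 CPM in D3RA and 57.7 ± 4.4 CPM in D0, both called higher, and the type II receptor gene Acvr2a averaged 153 ± 17 CPM in D3RA and 30.4 ± 3.6 CPM in D0 (log2 fold change 2.33 ± 0.10, adjusted p = 4.0e-12).

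In the FGF and ERK pathway, ligands and feedback genes fell while receptors were exchanged. Of 24 measured, 7 were at least 2-fold higher and 13 at least 2-fold lower. The ligand gene Fgf4 was at least 65-fold lower, with no count in D3RA against 12 ± 2.5 CPM in D0. Fgf5, a ligand of the primed epiblast, averaged 0.334 ± 0.29 CPM in D3RA and 15.1 ± 1.9 CPM in D0, and Fgf15 averaged 0.904 ± 0.51 CPM in D3RA and 34.3 ± 4.2 CPM in D0. The ETS factor Etv5, a transcriptional output of FGF signalling, had 1.82, 2.28 and 1.83 CPM in D3RA and 173, 170.1 and 177 CPM in D0, and Spry4, a feedback inhibitor, averaged 0.534 ± 0.66 CPM in D3RA and 23.5 ± 2.3 CPM in D0. Both outputs were lower in every D3RA library (log2 fold change -6.36 ± 0.12, adjusted p = 6.1e-16 for Etv5). Among receptors, Fgfr3 had 77.4, 69.1 and 59.8 CPM in D3RA and 2.46, 3.15 and 3.31 CPM in D0 and Fgfr2 averaged 169 ± 14 CPM in D3RA and 39.6 ± 2.8 CPM in D0, whereas Fgfr1 averaged 52.6 ± 3.8 CPM in D3RA and 120.4 ± 6.4 CPM in D0. Fgfr2 and Fgfr3 were called higher and Fgfr1 lower (log2 fold change 4.51 ± 0.14, adjusted p = 1.0e-13 for Fgfr3 and log2 fold change -1.19 ± 0.09, adjusted p = 2.3e-09 for Fgfr1). Dusp6, an ERK phosphatase often read as an FGF output, did not follow Etv5 and averaged 90.5 ± 7.0 CPM in D3RA and 68.2 ± 3.6 CPM in D0 (log2 fold change 0.41 ± 0.08, adjusted p = 1.4e-04).

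The retinoic acid pathway rose at the steps of binding and breakdown. Of 12 measured genes of synthesis, binding and breakdown, 8 were at least 2-fold higher and 2 at least 2-fold lower (median log2 fold change 2.19). Cyp26b1, a cytochrome P450 that degrades retinoic acid, had 149, 149.8 and 205 CPM in D3RA and 0.103, 0.315 and 0.378 CPM in D0. Cyp26a1, another degrading enzyme, whose promoter element is shown above, rose less, with 18.2, 11.4 and 10.0 CPM in D3RA and 3.49, 3.3 and 5.11 CPM in D0. Neither overlapped between groups (log2 fold change 9.14 ± 0.39, adjusted p = 4.6e-12 for Cyp26b1 and log2 fold change 1.71 ± 0.25, adjusted p = 1.5e-05 for Cyp26a1). The test of D3RA against D3DMSO put Cyp26b1 higher and Cyp26a1 lower in D3RA: Cyp26a1 averaged 13.2 ± 4.4 CPM in D3RA and 81.3 ± 13 CPM in D3DMSO (log2 fold change against D3DMSO -2.64 ± 0.25, adjusted p = 1.3e-07). Crabp2, which carries retinoic acid to its receptors, had 884, 934 and 934 CPM in D3RA and 23.3, 28.1 and 21.5 CPM in D0, and Crabp1 averaged 114 ± 18 CPM in D3RA and 4.44 ± 1.1 CPM in D0. Dhrs3, which turns retinaldehyde back to retinol, averaged 55.8 ± 11 CPM in D3RA and 4.89 ± 0.47 CPM in D0 (log2 fold change 3.49 ± 0.13, adjusted p = 1.2e-12). The retinol transporter Stra6 averaged 9.0 ± 3.7 CPM in D3RA and 1.38 ± 0.61 CPM in D0. The genes of synthesis moved in different directions. Rdh10, which makes retinaldehyde, averaged 7.65 ± 0.44 CPM in D3RA and 16.6 ± 1.8 CPM in D0 and was called lower (log2 fold change -1.09 ± 0.14, adjusted p = 2.6e-06). Aldh1a2, the enzyme that makes retinoic acid in the trunk mesoderm, had 1.18, 0.651 and 0.457 CPM in D3RA and 0.41, 0.157 and 0.378 CPM in D0. It was called higher at a low level (log2 fold change 1.30 ± 0.26, adjusted p = 3.5e-04), and the call was lost in the fit of these 6 libraries alone (adjusted p 2.1e-04 to 0.22 over the alternatives). In D3DMSO Aldh1a2 averaged 214 ± 29 CPM.

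Among receptors and cofactors, 3 of 17 were at least 2-fold higher, and those were Rarb and the orphan receptors Nr2f1 and Nr2f2 (COUP-TFI and II), which compete for the same response elements. Nr2f1 had 97.2, 103 and 114 CPM in D3RA and 0.103, 0.157 and 0.0946 CPM in D0, and Nr2f2 averaged 25.8 ± 5.9 CPM in D3RA and 0.163 ± 0.15 CPM in D0. Nr2f1 rests on 1 to 3 counts in D0, and its ratio was 894-fold higher (95% counting interval 306 to 4342). The receptor genes diverged: Rara averaged 70.3 ± 8.6 CPM in D3RA and 56.4 ± 2.5 CPM in D0 (log2 fold change 0.31 ± 0.09, adjusted p = 0.0067), whereas Rarg had 3.46, 1.95 and 4.57 CPM in D3RA and 24.4, 22.2 and 23.8 CPM in D0 (log2 fold change -2.84 ± 0.22, adjusted p = 8.2e-09). Rxra averaged 39.4 ± 3.4 CPM in D3RA and 23.2 ± 1.5 CPM in D0 and was called higher, and Rxrb averaged 45.6 ± 2.6 CPM in D3RA and 47.6 ± 1.8 CPM in D0 and was not called (log2 fold change -0.06 ± 0.09, adjusted p = 0.56). The corepressor gene Ncor1 averaged 319.6 ± 11 CPM in D3RA and 257 ± 17 CPM in D0 and was called higher by a small amount (log2 fold change 0.32 ± 0.08, adjusted p = 0.0023).

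Of 24 measured genes on the retinoic acid target list, 19 were at least 2-fold higher against 2 at least 2-fold lower, and the median log2 fold change was 4.86. The list shares genes with the Hox and pathway lists, so its count is not separate from theirs. Tshz1, a teashirt zinc-finger factor of the trunk, had 258, 228 and 276 CPM in D3RA and 1.85, 1.73 and 1.7 CPM in D0. Skap2, a gene beside the Hoxa cluster, averaged 144 ± 9.7 CPM in D3RA and 6.41 ± 0.71 CPM in D0 (log2 fold change 4.48 ± 0.10, adjusted p = 3.5e-15). Ret, the GDNF receptor kinase, averaged 47.9 ± 2.9 CPM in D3RA and 0.89 ± 0.19 CPM in D0, and the transglutaminase gene Tgm2 averaged 11.8 ± 3.0 CPM in D3RA and 1.88 ± 0.29 CPM in D0. The members at least 2-fold lower were Egr2 (Krox20), a factor of hindbrain rhombomeres, with 0.487 ± 0.46 CPM in D3RA and 4.12 ± 0.62 CPM in D0, and Fgf8, with 0.182, 0 and 0.457 CPM in D3RA and 2.56, 1.89 and 3.21 CPM in D0.

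All 24 measured Hox genes were called at least 2-fold higher, namely 8 of the Hoxa cluster, 9 of Hoxb, 3 of Hoxc and 4 of Hoxd. Paralog groups 1 to 9 were represented, and Hox genes outside the table were not analysed here. Hoxb4 had 179.8, 167 and 182 CPM in D3RA and 0, 0 and 0.0946 CPM in D0, and Hoxb6 had 172, 186 and 195 CPM in D3RA and 0 counts in all 3 D0 libraries. The 3 D0 libraries together held at most 3 counts of either gene, and no D3RA library came near that level. In paralog group 9, the highest represented, Hoxa9 averaged 0.738 ± 0.67 CPM in D3RA and 0 CPM in D0, Hoxd9 0.891 ± 0.42 CPM in D3RA and 0.137 ± 0.24 CPM in D0 and Hoxb9 53.9 ± 6.4 CPM in D3RA and 0.0657 ± 0.057 CPM in D0. Hoxb9 was 669-fold higher (95% counting interval 185 to 5532). Hoxa9 overlapped between single libraries and lost its call with the libraries thinned to the smallest scaled library size. Hoxb1, an early gene of the hindbrain, had 5.83, 4.23 and 5.02 CPM in D3RA and 0 counts in all 3 D0 libraries, and its level in D3DMSO was higher still, 36.4 ± 15 CPM (log2 fold change against D3DMSO -2.73 ± 0.29, adjusted p = 4.7e-07). Reads of overlapping and antisense Hox transcripts cannot be told apart here, since the strand setting of the counting is not given in the sources used here.

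**Figure D3:**
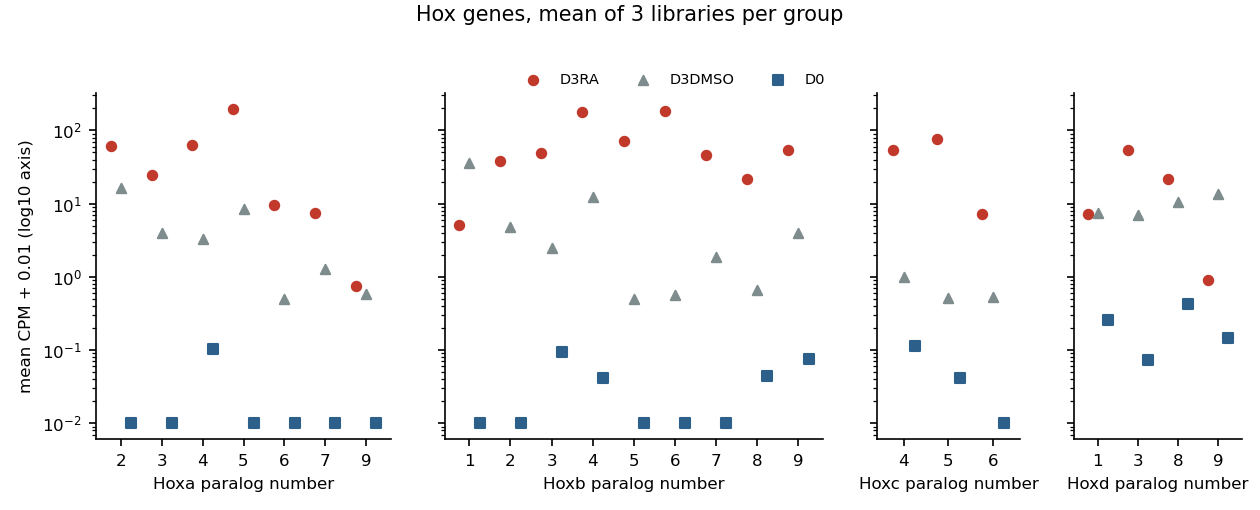
Mean CPM of 23 of the 24 measured Hox genes by cluster and paralog number, in D3RA (left symbol), D3DMSO (middle) and D0 (right), on a log10 axis with 0.01 CPM added. All 23 drawn lie higher in D3RA than in D0, and Hoxb1, Hoxd1 and Hoxd9 lie higher in D3DMSO than in D3RA, Hoxd1 by less than its spread.

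The TALE-class partners of Hox proteins rose together. Of 9 measured, 8 were called higher, 4 of them by at least 2-fold, and none lower (median log2 fold change 0.95). Over all genes, 35.0% were called higher. Meis1 had 219, 234 and 211 CPM in D3RA and 1.44, 2.04 and 2.84 CPM in D0, and Meis2 had 146, 161 and 174 CPM in D3RA and 2.67, 2.36 and 2.93 CPM in D0. Both were far above D0 in every library (log2 fold change 6.73 ± 0.16, adjusted p = 6.6e-15 and log2 fold change 5.89 ± 0.14, adjusted p = 3.5e-15), while Pbx3, of the partner family, rose less, with 93.3 ± 8.5 CPM in D3RA and 56.8 ± 1.2 CPM in D0. In D3DMSO, Meis1 averaged 4.2 ± 0.67 CPM and Meis2 97.1 ± 23 CPM.

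Along the head-to-tail axis of the neural tube, genes of both the anterior and the posterior lists moved in either direction. Of 11 measured hindbrain and spinal cord genes, 7 were at least 2-fold higher and 3 at least 2-fold lower (median log2 fold change 3.38), while against D3DMSO 5 were called higher and 5 lower (median -1.18). Irx3, a homeobox gene of the caudal neural plate, had 94.6, 61.9 and 95.5 CPM in D3RA and 1.44, 1.42 and 0.851 CPM in D0, and its cluster partner Irx5 averaged 62.3 ± 7.6 CPM in D3RA and 0.856 ± 0.15 CPM in D0 (log2 fold change 6.10 ± 0.28, adjusted p = 9.9e-12). Cdx2, the caudal factor of the tail bud, was at or under the limit of detection in both groups, with 0.0304 ± 0.053 CPM in D3RA and 0.0657 ± 0.057 CPM in D0, against 95.6 ± 19.7 CPM in D3DMSO. Of 9 measured forebrain and midbrain genes, 5 were at least 2-fold higher and 3 lower (median log2 fold change 2.53), and against D3DMSO 5 were called higher and 2 lower. Those at least 2-fold lower than in D0 were Otx2, En1 and En2, and En2 lost its call when any 1 of 5 libraries was left out (adjusted p 4.7e-04 to 0.31 over the alternatives). Pax2 and Pax5, paired-box genes of the midbrain-hindbrain boundary, were both higher, with 3.88 ± 1.8 CPM in D3RA and 0.0342 ± 0.059 CPM in D0 and 1.39 ± 0.42 CPM in D3RA and 0.0524 ± 0.091 CPM in D0.

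Across the back-to-belly axis, most dorsal genes rose. Of 12 measured dorsal neural tube genes, 9 were at least 2-fold higher and 1 at least 2-fold lower (median log2 fold change 4.82). Pax3 had 101, 103 and 104 CPM in D3RA and 0.205, 0.157 and 0.189 CPM in D0, and Pax7 had 29.5, 22.5 and 35.2 CPM in D3RA and 0 counts in all 3 D0 libraries. Both paired-box genes mark the dorsal neural tube, and Pax7 was at least 258-fold higher. Msx3, a homeobox gene of the dorsal neural tube, was at least 318-fold higher, with 35.7 ± 1.7 CPM in D3RA. The roof-plate ligand gene Wnt1 had 18, 16 and 16.4 CPM in D3RA and 0.103, 0 and 0 CPM in D0. Of 6 measured ventral genes, 2 were at least 2-fold higher and 1 at least 2-fold lower. Dbx1, of the interneuron domain at mid-height, had 32.3, 34.9 and 45.7 CPM in D3RA and 0, 0.157 and 0 CPM in D0, whereas Nkx6-1, which marks more ventral progenitors, averaged 0.0304 ± 0.053 CPM in D3RA and 3.04 ± 0.71 CPM in D0. Of 12 measured Hedgehog pathway genes, 3 were at least 2-fold higher and 1 at least 2-fold lower. Those higher all encode cell-surface Hedgehog-binding proteins, with 183 ± 17 CPM in D3RA and 4.77 ± 0.88 CPM in D0 for Boc, 187 ± 17 CPM in D3RA and 16.8 ± 0.71 CPM in D0 for Gas1 and 128 ± 6.7 CPM in D3RA and 28.4 ± 0.48 CPM in D0 for Cdon. The pathway's own targets did not rise. Ptch1 averaged 36.7 ± 2.3 CPM in D3RA and 47.7 ± 8.7 CPM in D0 and was called lower with overlapping libraries, a call lost without D0 replicate 2 or 3 (adjusted p 7.0e-04 to 0.092 over the alternatives). Gli1 averaged 0.751 ± 0.27 CPM in D3RA and 1.41 ± 0.54 CPM in D0 and was not called (log2 fold change -0.66 ± 0.34, adjusted p = 0.097).

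Neural progenitor genes rose. Of 27 measured, 21 were at least 2-fold higher and 3 at least 2-fold lower, and the median log2 fold change was 2.32. Pou3f3 (Brn1), a POU factor of neural progenitors, had 78, 79.8 and 85.9 CPM in D3RA and 0.41, 0 and 0.0946 CPM in D0. Fabp7, a fatty acid-binding protein of radial glia, had 183, 152 and 176 CPM in D3RA and 2.46, 3.93 and 2.17 CPM in D0, and Sox21, an HMG factor that counters Sox2, averaged 42 ± 4.4 CPM in D3RA and 0.625 ± 0.16 CPM in D0. All 3 genes were called higher, with little transcript in D0. Genes that P19 cells already transcribed rose by smaller factors. The intermediate filament genes Nes and Vim averaged 484 ± 19 CPM in D3RA and 179 ± 15 CPM in D0 for Nes and 1905 ± 135 CPM in D3RA and 382 ± 22 CPM in D0 for Vim (log2 fold change 1.44 ± 0.08, adjusted p = 5.9e-11 and log2 fold change 2.32 ± 0.07, adjusted p = 1.5e-13). Sox9, which precedes glial fate, averaged 16.2 ± 2.8 CPM in D3RA and 2.15 ± 0.27 CPM in D0. Those at least 2-fold lower were Zic2, Zic5 and Slc1a3, a glutamate transporter, with 37.9 ± 4.4 CPM in D3RA and 106 ± 5.0 CPM in D0 (log2 fold change -1.48 ± 0.13, adjusted p = 2.4e-08). Zic1, a close relative of Zic2, went the other way, with 88.4 ± 7.1 CPM in D3RA and 34.8 ± 1.2 CPM in D0 for Zic1 and 10.2 ± 1.1 CPM in D3RA and 52.3 ± 2.4 CPM in D0 for Zic2.

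Most proneural factors and Notch pathway genes rose. Of 26 measured, 22 were called higher, 19 of them by at least 2-fold, and 3 lower, none by at least 2-fold. Neurog1, a basic helix-loop-helix factor that commits progenitors to neurons, had 20.8, 24.8 and 30.6 CPM in D3RA and 0.103, 0 and 0 CPM in D0. The ligand gene Dll1 averaged 64.3 ± 7.7 CPM in D3RA and 5.95 ± 0.95 CPM in D0 (log2 fold change 3.43 ± 0.19, adjusted p = 8.9e-11), and the receptor gene Notch1 averaged 106 ± 20.4 CPM in D3RA and 21.5 ± 6.2 CPM in D0 (log2 fold change 2.33 ± 0.27, adjusted p = 7.5e-07). Hes5, the Notch target that holds progenitors undifferentiated, had 25.2, 20.8 and 16.9 CPM in D3RA and 0, 0 and 0.189 CPM in D0, whereas its relative Hes1 changed little, with 45.7 ± 0.74 CPM in D3RA and 36.8 ± 3.2 CPM in D0 (log2 fold change 0.32 ± 0.09, adjusted p = 0.0049). Notch2 was called lower by less than 2-fold, with 68.3 ± 9.2 CPM in D3RA and 108 ± 15 CPM in D0. In D3DMSO the ligand gene Dll1 was higher than in D3RA, at 169 ± 59.6 CPM (log2 fold change against D3DMSO -1.34 ± 0.19, adjusted p = 1.0e-05), as was Dll3, with 10.3 ± 2.2 CPM in D3RA and 82.5 ± 12 CPM in D3DMSO. Hes1 was higher there too, at 77.0 ± 11 CPM. Notch1 averaged 91.9 ± 37 CPM in D3DMSO and was not called (log2 fold change against D3DMSO 0.29 ± 0.27, adjusted p = 0.35). Of the whole list, 16 genes were called higher than in D3DMSO and 5 lower.

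Factors of postmitotic neurons were already present on day 3. Of 28 measured, 25 were at least 2-fold higher and 1 at least 2-fold lower, with a median log2 fold change of 4.51. Nhlh2 had 69.1, 91.9 and 71.7 CPM in D3RA and 0 counts in all 3 D0 libraries. St18 and Myt1, related zinc-finger genes of neuronal differentiation, had 37.6, 66.1 and 38.4 CPM in D3RA and 0, 0.157 and 0 CPM in D0 for St18 and 42.2, 43.3 and 44.3 CPM in D3RA and 0.205, 0.944 and 0.378 CPM in D0 for Myt1. No D0 library overlapped D3RA for any of these genes. Lhx1 and Lhx5, LIM-homeodomain genes of spinal interneurons, averaged 25.1 ± 5.5 CPM in D3RA and 0.864 ± 0.21 CPM in D0 for Lhx1 and 16.6 ± 3.5 CPM in D3RA and 1.35 ± 0.11 CPM in D0 for Lhx5. Lhx1 also serves mesoderm, and in D3DMSO it averaged 74 ± 19 CPM, whereas Lhx5 averaged 0.12 ± 0.11 CPM. Lbx1, of dorsal interneurons, averaged 15.2 ± 2.6 CPM in D3RA and 0.0342 ± 0.059 CPM in D0, and Pou4f1 (Brn3a), of sensory neurons, averaged 3.04 ± 0.96 CPM in D3RA and 0.0315 ± 0.055 CPM in D0. Phox2a, of motor and autonomic neurons, was the member at least 2-fold lower, with 0.0304 ± 0.053 CPM in D3RA and 4.71 ± 1.1 CPM in D0.

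Of 44 measured genes of the neuronal cytoskeleton and axon growth, 29 were at least 2-fold higher and 3 at least 2-fold lower. Robo3, a guidance receptor of commissural axons, had 156, 165 and 183 CPM in D3RA and 0.513, 0.157 and 0.378 CPM in D0, and Dcc, the netrin receptor, had 39.9, 43.6 and 44.3 CPM in D3RA and 0.103, 0 and 0.0946 CPM in D0. Dcx (doublecortin), a microtubule-associated protein of migrating neurons, had 83.3, 123 and 115 CPM in D3RA and 1.54, 2.2 and 1.32 CPM in D0, and Map2, of dendrites, averaged 314 ± 53 CPM in D3RA and 14.9 ± 1.9 CPM in D0. Groups did not overlap for these genes (log2 fold change 8.77 ± 0.34, adjusted p = 1.7e-12 for Robo3 and log2 fold change 5.95 ± 0.34, adjusted p = 1.8e-10 for Dcx). Tubb3, the neuronal beta-tubulin, was already transcribed in D0 and rose less, with 286 ± 21 CPM in D3RA and 112 ± 12 CPM in D0 (log2 fold change 1.35 ± 0.09, adjusted p = 1.8e-09). The members at least 2-fold lower were Stmn2, Kif1a and Nefh, and Stmn2, a tubulin-binding protein of growing axons, averaged 76.2 ± 11 CPM in D3RA and 171 ± 7.7 CPM in D0 (log2 fold change -1.18 ± 0.11, adjusted p = 1.0e-07).

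Of 43 measured genes of synapses and excitability, 23 were at least 2-fold higher and 7 at least 2-fold lower. Chrna3, a nicotinic receptor subunit, was at least 289-fold higher, with 29.6, 41 and 26.9 CPM in D3RA and 0 counts in all 3 D0 libraries. Its partner subunit Chrnb4 averaged 11.2 ± 4.4 CPM in D3RA and 0.885 ± 0.55 CPM in D0. The vesicle genes Syp and Syt1 averaged 13.7 ± 0.84 CPM in D3RA and 1.3 ± 0.77 CPM in D0 for Syp and 27.7 ± 5.1 CPM in D3RA and 7.37 ± 1.2 CPM in D0 for Syt1. Both were called higher (log2 fold change 3.55 ± 0.36, adjusted p = 1.5e-07 and log2 fold change 1.90 ± 0.30, adjusted p = 3.3e-05). Of the transmitter genes, Gad2, which makes GABA, averaged 9.73 ± 1.6 CPM in D3RA and 0.942 ± 0.57 CPM in D0, and Slc17a6, the vesicular glutamate transporter, averaged 0.569 ± 0.37 CPM in D3RA and 1.01 ± 0.27 CPM in D0 and was not called. The NMDA receptor subunit gene Grin1 averaged 0.395 ± 0.37 CPM in D3RA and 2.66 ± 0.43 CPM in D0 and the choline transporter gene Slc5a7 averaged 0.322 ± 0.14 CPM in D3RA and 3.04 ± 0.77 CPM in D0, both called lower.

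The RNA-binding proteins that distinguish neuronal splicing rose more often than they fell. Of 27 measured, 13 were at least 2-fold higher and 3 at least 2-fold lower. Rbfox1 averaged 11.4 ± 1.6 CPM in D3RA and 0.488 ± 0.29 CPM in D0, Nova1 averaged 78.2 ± 5.9 CPM in D3RA and 13.1 ± 1.7 CPM in D0, and Srrm4, a regulator of neural microexons, averaged 13.1 ± 5.6 CPM in D3RA and 0.804 ± 0.2 CPM in D0. All 3 splicing factors were called higher. Ptbp2, the neural form of the polypyrimidine tract-binding protein, had 416, 389 and 413 CPM in D3RA and 249, 245 and 240.3 CPM in D0, and Ptbp1, the form of other cells, had 291, 277 and 243 CPM in D3RA and 431, 467 and 436 CPM in D0. The 2 genes moved in opposite directions with no overlap (log2 fold change 0.73 ± 0.07, adjusted p = 5.7e-08 for Ptbp2 and log2 fold change -0.72 ± 0.08, adjusted p = 3.9e-07 for Ptbp1). Rest, the repressor of neuronal genes outside neurons, averaged 91.3 ± 13 CPM in D3RA and 321 ± 11 CPM in D0 (log2 fold change -1.82 ± 0.08, adjusted p = 1.3e-11). Esrp1, an epithelial splicing factor, averaged 0.274 ± 0.24 CPM in D3RA and 12.2 ± 0.72 CPM in D0 (log2 fold change -5.10 ± 0.40, adjusted p = 7.1e-09).

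Wnt pathway genes moved in both directions. Of 35 measured, 15 were at least 2-fold higher and 8 at least 2-fold lower. The ligand genes Wnt7b and Wnt4 averaged 14 ± 3.6 CPM in D3RA and 0.0972 ± 0.095 CPM in D0 for Wnt7b and 17.1 ± 2.7 CPM in D3RA and 0.853 ± 0.068 CPM in D0 for Wnt4, and Wnt1 has been given above. Axin2, a feedback target of the pathway, had 53.6, 49.5 and 57.1 CPM in D3RA and 10.5, 11.8 and 11.1 CPM in D0 (log2 fold change 2.26 ± 0.12, adjusted p = 4.3e-11). In D3DMSO Axin2 was higher still, at 94.5 ± 19 CPM (log2 fold change against D3DMSO -0.80 ± 0.12, adjusted p = 1.4e-05). Of the whole list, 11 genes were called higher than in D3DMSO and 21 lower. Lef1, Tcf7 and Tcf7l1, DNA-binding effectors of the pathway, were all lower, with 5.05 ± 1.6 CPM in D3RA and 23.4 ± 1.9 CPM in D0 for Lef1, 7.84 ± 0.87 CPM in D3RA and 47.1 ± 5.1 CPM in D0 for Tcf7 and 7.05 ± 2.6 CPM in D3RA and 41.1 ± 9.5 CPM in D0 for Tcf7l1. Fzd5 and Fzd3, 2 of the receptors, moved apart. Fzd5 averaged 5.82 ± 2.0 CPM in D3RA and 71 ± 6.8 CPM in D0 and Fzd3 averaged 221 ± 15 CPM in D3RA and 39.1 ± 3.4 CPM in D0 (log2 fold change -3.63 ± 0.22, adjusted p = 3.8e-10 and log2 fold change 2.50 ± 0.11, adjusted p = 7.1e-12).

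In the BMP pathway, 12 of 24 measured genes were at least 2-fold higher and 3 at least 2-fold lower. The ligand genes Bmp7 and Gdf11 averaged 17.9 ± 1.5 CPM in D3RA and 2.69 ± 0.74 CPM in D0 for Bmp7 and 49.7 ± 4.8 CPM in D3RA and 5.92 ± 0.47 CPM in D0 for Gdf11. The targets Id2 and Id3, which hold back helix-loop-helix factors, averaged 165 ± 19 CPM in D3RA and 33.7 ± 4.2 CPM in D0 for Id2 and 127 ± 25 CPM in D3RA and 36.5 ± 3.3 CPM in D0 for Id3, and both were called higher. The ligand gene Bmp4 averaged 4.47 ± 0.88 CPM in D3RA and 3.25 ± 0.61 CPM in D0 and was not called (log2 fold change 0.48 ± 0.23, adjusted p = 0.071). Fst, an activin and BMP antagonist, was lower, with 3.92, 5.21 and 2.28 CPM in D3RA and 36.9, 41.4 and 34.3 CPM in D0, and in D3DMSO it averaged 539.7 ± 53 CPM.

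**Figure D4:**
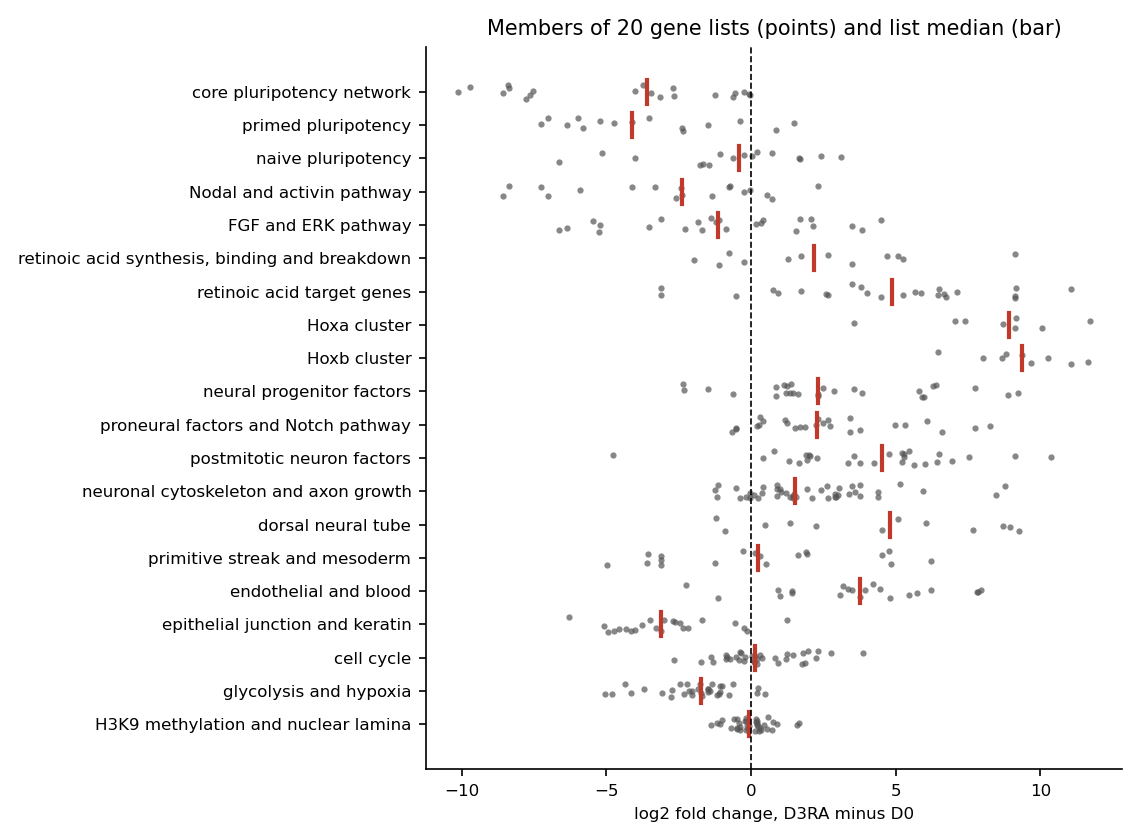
Log2 fold change, D3RA minus D0, of the measured members of 20 gene lists, 1 point a gene, with the median of each list as a bar and the median of all 14717 genes as a dashed line. Epithelial, glycolysis and core pluripotency lists lie to the left, and Hox, retinoic acid target and postmitotic neuron lists to the right.

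Genes of other lineages did not share a direction. For the primitive streak and mesoderm list, 7 of 18 measured genes were at least 2-fold higher and 7 at least 2-fold lower, and the list's summed level was 102 to 119 CPM in D3RA, 1737 to 1942 CPM in D3DMSO and 48.4 to 52.3 CPM in D0. The streak gene Eomes had 0.273, 0.977 and 1.83 CPM in D3RA and 29.5, 27.5 and 29 CPM in D0. T (brachyury) had 0.182, 0.651 and 0 CPM in D3RA and 3.08, 3.46 and 2.46 CPM in D0, against 874 ± 19 CPM in D3DMSO. Tbx6, of paraxial mesoderm, averaged 0.777 ± 0.4 CPM in D3RA and 0.719 ± 0.091 CPM in D0 and was not called, against 92.4 ± 37 CPM in D3DMSO. Among the 7 members at least 2-fold higher were Kdr, Lhx1 and Wnt3a, genes that also serve blood vessels or the neural tube, and the others are not reported here. Wnt3a was low, with 1.21 ± 0.21 CPM in D3RA and 0 CPM in D0. Of 14 cardiac genes, 10 were at least 2-fold lower, among them Actc1, with 2.88 ± 0.33 CPM in D3RA and 12.9 ± 3.6 CPM in D0, and Myh6, with 0.243 ± 0.23 CPM in D3RA and 2.7 ± 0.46 CPM in D0. The only cardiac list member called higher was Mef2c, with 16.7 ± 3.5 CPM in D3RA and 3.28 ± 0.84 CPM in D0, a MADS-box factor that neurons also use. The trophectoderm list had 5 of 10 at least 2-fold lower, and the endoderm list had 5 of 13 higher and 3 lower.

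Endothelial and blood genes rose beside the neural genes. Of 21 measured, 17 were at least 2-fold higher and 1 at least 2-fold lower (median log2 fold change 3.76), and the list's summed level was 363 to 458 CPM in D3RA, 113 to 146 CPM in D3DMSO and 56.6 to 57.7 CPM in D0. Cdh5 (VE-cadherin), the junction protein of endothelium, had 33.5, 30.3 and 42.5 CPM in D3RA and 0.103, 0 and 0.189 CPM in D0. Tie1, an endothelial receptor kinase, had 41.3, 21.5 and 37 CPM in D3RA and 0.103, 0 and 0.189 CPM in D0, and Emcn (endomucin) averaged 19.3 ± 4.2 CPM in D3RA and 0.0342 ± 0.059 CPM in D0. These genes were present in every D3RA library and at 0 to 3 counts in D0. Kdr, the receptor for VEGF, averaged 66.4 ± 12 CPM in D3RA and 0.904 ± 0.48 CPM in D0, against 46.8 ± 15 CPM in D3DMSO (log2 fold change against D3DMSO 0.54 ± 0.28, adjusted p = 0.11). Pecam1 averaged 22.6 ± 2.9 CPM in D3RA and 1.2 ± 0.46 CPM in D0 (log2 fold change 4.23 ± 0.36, adjusted p = 1.9e-08), and Sox17, a factor of arteries and of endoderm, averaged 9.77 ± 1.7 CPM in D3RA and 0.397 ± 0.15 CPM in D0 (log2 fold change 4.47 ± 0.38, adjusted p = 1.9e-08). Tal1 and Gata2 of this list are also used by spinal interneurons, so the list is not specific to vessels. Etv2, the early initiator of the endothelial programme, was the member at least 2-fold lower, with 0.534 ± 0.26 CPM in D3RA and 3.1 ± 0.52 CPM in D0 (log2 fold change -2.24 ± 0.39, adjusted p = 7.3e-05), and without D3RA replicate 3 the count of such members was 2. What part of the D3RA RNA came from such cells was not tested.

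Of 15 measured neural crest and glia genes, 8 were at least 2-fold higher and 5 at least 2-fold lower, and the summed level was 354 to 379 CPM in D3RA, 182 to 242 CPM in D3DMSO and 115 to 133 CPM in D0. Ednrb, the endothelin receptor of crest and of neural progenitors, had 159, 172 and 139 CPM in D3RA and 0.923, 1.1 and 0.946 CPM in D0. The crest factor Tfap2b averaged 5.59 ± 1.7 CPM in D3RA and 0.0315 ± 0.055 CPM in D0. The crest and pluripotency factor Foxd3 was lower, with 0.182, 0.326 and 0 CPM in D3RA and 73.6, 63.1 and 56.1 CPM in D0. The glial genes Aldh1l1 and Erbb3 were lower too, with 3.48 ± 1.0 CPM in D3RA and 24.4 ± 0.81 CPM in D0 for Aldh1l1 and 1.81 ± 1.3 CPM in D3RA and 13.2 ± 1.3 CPM in D0 for Erbb3. The smooth muscle and fibroblast list held 3 of 13 members at least 2-fold higher and 5 lower, and 5 were higher without D3RA replicate 1 or without D0 replicate 3. Its summed level, which includes Vim, was 2139 to 2329 CPM in D3RA, 911 to 1953 CPM in D3DMSO and 589.8 to 675 CPM in D0.

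Cell junction genes changed from epithelial to neural and mesenchymal types. Of 23 measured epithelial genes, 19 were at least 2-fold lower and 1 higher (median log2 fold change -3.10). Cdh1 (E-cadherin) had 0.82, 0.651 and 1.37 CPM in D3RA and 81.2, 68.7 and 93.6 CPM in D0, and Epcam had 4.1, 5.86 and 5.02 CPM in D3RA and 165, 153 and 153 CPM in D0. Cdh2 (N-cadherin), its neural counterpart, had 209, 230.0 and 267 CPM in D3RA and 74.5, 74.4 and 77.9 CPM in D0. Cdh1 and Epcam were lower and Cdh2 higher with no overlap (log2 fold change -6.28 ± 0.24, adjusted p = 1.5e-12, log2 fold change -4.95 ± 0.17, adjusted p = 3.8e-13 and log2 fold change 1.63 ± 0.14, adjusted p = 3.3e-08, in that order). Of 16 genes of neural adhesion and mesenchymal transition, 12 were at least 2-fold higher and none was called lower. The repressors of E-cadherin Zeb1 and Zeb2 averaged 131 ± 16 CPM in D3RA and 40.8 ± 3.2 CPM in D0 for Zeb1 and 134 ± 18 CPM in D3RA and 61.5 ± 5.8 CPM in D0 for Zeb2, whereas Snai1 averaged 0.274 ± 0.24 CPM in D3RA and 0.389 ± 0.096 CPM in D0, was not called (log2 fold change -0.29 ± 0.39, adjusted p = 0.52), and averaged 18.4 ± 1.8 CPM in D3DMSO. Of 37 collagens, laminins and integrins, 9 were at least 2-fold higher and 10 lower. Laminin chain genes were exchanged, with 99.8 ± 2.2 CPM in D3RA and 14 ± 2.3 CPM in D0 for Lama1 and 37.1 ± 9.8 CPM in D3RA and 165 ± 37 CPM in D0 for Lama5, and so were integrins, with 148 ± 19 CPM in D3RA and 13.9 ± 2.8 CPM in D0 for Itgb8 and 58 ± 2.3 CPM in D3RA and 506 ± 7.0 CPM in D0 for Itga6.

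Cell cycle genes split without a common direction. Of 35 measured, 11 were at least 2-fold higher and 4 at least 2-fold lower, and the median log2 fold change was 0.15. The proliferation gene Mki67 averaged 769.9 ± 59.6 CPM in D3RA and 693 ± 54 CPM in D0 and was not called (log2 fold change 0.15 ± 0.12, adjusted p = 0.28). Regulators of the G1 phase were exchanged. Ccnd2 (cyclin D2), typical of neural progenitors, had 328, 394 and 388 CPM in D3RA and 73.5, 70.0 and 94 CPM in D0, whereas Ccne1 (cyclin E1) had 43.4, 41 and 42.9 CPM in D3RA and 159, 137 and 134 CPM in D0, and the kinase gene Cdk6 averaged 5.61 ± 0.98 CPM in D3RA and 36.2 ± 2.4 CPM in D0. The cyclin-dependent kinase inhibitor gene Cdkn2c averaged 4.34 ± 0.6 CPM in D3RA and 0.291 ± 0.19 CPM in D0, the retinoblastoma gene Rb1 averaged 30.3 ± 3.0 CPM in D3RA and 6.16 ± 1.7 CPM in D0, and the antiproliferative gene Btg2 of neurogenic progenitors averaged 49.3 ± 3.8 CPM in D3RA and 17.9 ± 0.97 CPM in D0. All 3 were called higher. Mycn averaged 123 ± 13 CPM in D3RA and 225 ± 14 CPM in D0 and Myc 19.9 ± 5.4 CPM in D3RA and 10.1 ± 1.2 CPM in D0, the first called lower and the second higher (log2 fold change -0.88 ± 0.08, adjusted p = 7.0e-08 and log2 fold change 0.95 ± 0.18, adjusted p = 2.2e-04). No gene of DNA replication was at least 2-fold higher and 2 of 28 were at least 2-fold lower, below the background of 14.3%.

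Glycolysis and hypoxia genes fell. Of 33 measured, 27 were at least 2-fold lower, none was at least 2-fold higher, and the median log2 fold change was -1.71. Slc2a3 (Glut3), the high-affinity glucose carrier, had 68.9, 82.4 and 63.9 CPM in D3RA and 1344, 1603 and 1497 CPM in D0. Slc16a3 (Mct4), which exports lactate, had 16.8, 14.3 and 8.68 CPM in D3RA and 341, 406 and 349.8 CPM in D0, and Ldha, which makes it, had 210.3, 218 and 194 CPM in D3RA and 845, 1066 and 876 CPM in D0. Groups did not overlap for these genes (log2 fold change -4.37 ± 0.10, adjusted p = 3.2e-15, log2 fold change -4.81 ± 0.21, adjusted p = 6.8e-12 and log2 fold change -2.16 ± 0.13, adjusted p = 2.1e-10, in that order). The first glycolytic kinase Hk2 averaged 80.6 ± 7.2 CPM in D3RA and 449 ± 69.9 CPM in D0, and the aldolase gene Aldoa averaged 292 ± 25 CPM in D3RA and 1205 ± 99 CPM in D0. Of genes that answer low oxygen, Bnip3 averaged 14.4 ± 1.1 CPM in D3RA and 193 ± 42 CPM in D0, Ndrg1 2.45 ± 1.5 CPM in D3RA and 41.6 ± 7.3 CPM in D0 and Adm 0.152 ± 0.26 CPM in D3RA and 9.05 ± 2.7 CPM in D0. Those not called were Slc2a1 (Glut1), with 525 ± 29.8 CPM in D3RA and 453 ± 51 CPM in D0, and Vegfa, with 37 ± 7.2 CPM in D3RA and 31.3 ± 4.6 CPM in D0. Gapdh, Pgk1, Eno1 and Pgam1 share reads with processed pseudogenes, and their low counts are uncertain. In the same direction, 13 of 30 serine, one-carbon and ATF4 genes were at least 2-fold lower. Mthfd1, a folate-cycle enzyme, averaged 89.9 ± 4.9 CPM in D3RA and 612 ± 36 CPM in D0, the arginine carrier gene Slc7a3 averaged 7.24 ± 2.3 CPM in D3RA and 274 ± 13 CPM in D0, and Tdh, the threonine dehydrogenase on which mouse pluripotent cells rely, was at least 27.2-fold lower. Of 35 nuclear genes of the respiratory chain, 14 were called higher and 9 lower, near the background of 35.0% and 33.9%. Of 22 genes of cholesterol synthesis, 8 were called higher and 10 lower (median log2 fold change -0.06), with 1 at least 2-fold higher and 2 at least 2-fold lower. The member at least 2-fold higher was the enzyme gene Msmo1, with 208 ± 15 CPM in D3RA and 80.0 ± 8.0 CPM in D0.

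Among chromatin regulators, members of the same family moved in opposite directions. Of 15 DNA methylation genes, 4 were at least 2-fold higher and 4 lower. Dnmt3b and Dnmt3a fell, with 139 ± 15 CPM in D3RA and 390.2 ± 14 CPM in D0 for Dnmt3a (log2 fold change -1.49 ± 0.08, adjusted p = 1.5e-10), while the maintenance enzyme Dnmt1 averaged 346 ± 16 CPM in D3RA and 388 ± 3.5 CPM in D0, a small fall whose call was lost without D3RA replicate 3 or D0 replicate 2 (adjusted p 0.018 to 0.12 over the alternatives). Of the dioxygenases that oxidise methylcytosine, Tet1 had 49, 50.8 and 55.3 CPM in D3RA and 151, 175 and 251 CPM in D0, Tet3 averaged 74.7 ± 19 CPM in D3RA and 35.7 ± 9.0 CPM in D0, and Tet2 has been given above. Tet1 was lower and Tet2 and Tet3 higher (log2 fold change -1.86 ± 0.17, adjusted p = 6.6e-08 for Tet1 and log2 fold change 1.07 ± 0.25, adjusted p = 0.0011 for Tet3). Of 29 polycomb genes, 5 were at least 2-fold higher and 8 lower. Cbx7, the chromobox protein of pluripotent cells, had 3.46, 3.26 and 5.48 CPM in D3RA and 74.6, 78.9 and 74.5 CPM in D0, whereas its relative Cbx8 averaged 8.07 ± 2.3 CPM in D3RA and 2.56 ± 0.5 CPM in D0. Bmi1 had 64.7, 60.9 and 69.4 CPM in D3RA and 9.23, 8.33 and 10.3 CPM in D0, and Phc1 averaged 74.7 ± 2.3 CPM in D3RA and 472 ± 62 CPM in D0. Cbx7 and Phc1 were lower and Cbx8 and Bmi1 higher (log2 fold change -4.22 ± 0.19, adjusted p = 7.4e-12 for Cbx7 and log2 fold change 2.80 ± 0.10, adjusted p = 8.1e-13 for Bmi1). The methyltransferase gene Ezh2 averaged 163 ± 16 CPM in D3RA and 120.1 ± 9.7 CPM in D0 and the subunit gene Eed 75.1 ± 11 CPM in D3RA and 84.7 ± 5.1 CPM in D0, the first called slightly higher (log2 fold change 0.44 ± 0.09, adjusted p = 2.7e-04) and the second not called.

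Genes of H3K9 methylation and the nuclear lamina, which the ChIP arm of the series addresses, changed little in size. Of 37 measured, 2 were at least 2-fold higher and 3 lower, below the backgrounds of 16.2% and 14.3%. The H3K9 methyltransferase genes Ehmt1 and Ehmt2 averaged 174 ± 8.9 CPM in D3RA and 143 ± 1.6 CPM in D0 for Ehmt1 and 170.3 ± 12 CPM in D3RA and 189.7 ± 11 CPM in D0 for Ehmt2. Ehmt1 was called higher by a small amount (log2 fold change 0.28 ± 0.07, adjusted p = 0.0013) and Ehmt2 was not called (log2 fold change -0.16 ± 0.08, adjusted p = 0.11). Lbr, the inner membrane tether of heterochromatin, averaged 218 ± 22 CPM in D3RA and 285 ± 19.5 CPM in D0 (log2 fold change -0.39 ± 0.07, adjusted p = 1.7e-04), Lmnb1 averaged 184 ± 30.0 CPM in D3RA and 255 ± 5.2 CPM in D0 and Lmna, a lamin of differentiated cells, averaged 5.23 ± 1.0 CPM in D3RA and 12.1 ± 3.2 CPM in D0. All 3 were called lower. Trim28, a corepressor of transposons, averaged 456 ± 41 CPM in D3RA and 1175 ± 51 CPM in D0 (log2 fold change -1.37 ± 0.08, adjusted p = 2.0e-10), and Syne2, a nesprin that links the nucleus to the cytoskeleton, averaged 483 ± 44 CPM in D3RA and 159.9 ± 23 CPM in D0 (log2 fold change 1.60 ± 0.11, adjusted p = 2.0e-09). Of 28 BAF chromatin-remodelling subunits, 8 were at least 2-fold higher and 3 lower. Actl6b and Ss18l1, subunits of the neuronal form, rose, with 4.29 ± 1.3 CPM in D3RA and 0.0657 ± 0.057 CPM in D0 for Actl6b and 14.9 ± 2.3 CPM in D3RA and 6.85 ± 1.4 CPM in D0 for Ss18l1. Actl6a, the counterpart of Actl6b in proliferating cells, averaged 175 ± 8.4 CPM in D3RA and 167 ± 11 CPM in D0 and was not called. Smarcc2, which is not confined to the neuronal form, rose as well, with 85.4 ± 8.9 CPM in D3RA and 18.7 ± 1.6 CPM in D0. Its relative Smarcc1 averaged 249.5 ± 37 CPM in D3RA and 369 ± 39 CPM in D0 and was called lower (log2 fold change -0.57 ± 0.13, adjusted p = 9.7e-04).

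Of 22 imprinted and noncoding RNA genes, 9 were at least 2-fold higher and 3 lower. The neighbours Igf2 and H19 rose together, with 125, 116 and 129 CPM in D3RA and 24.6, 19.3 and 30.4 CPM in D0 for Igf2 and 289, 263 and 289 CPM in D3RA and 77, 68.7 and 66.6 CPM in D0 for H19. Meg3 averaged 35.1 ± 5.0 CPM in D3RA and 68.5 ± 5.3 CPM in D0 and was called lower (log2 fold change -0.97 ± 0.11, adjusted p = 4.6e-07). Mir99ahg, a noncoding gene named as the host of miR-99a, was at least 192-fold higher, with 21.5 ± 3.8 CPM in D3RA. Of 20 immediate early genes, 7 were at least 2-fold lower, with 19.5 ± 5.2 CPM in D3RA and 77.6 ± 15 CPM in D0 for Fos and 2.97 ± 1.4 CPM in D3RA and 32.5 ± 5.8 CPM in D0 for Fosb.

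Set against D3DMSO, which shares aggregation and day with D3RA, the markers kept their direction. Pou5f1 averaged 1.79 ± 2.0 CPM in D3RA and 555 ± 247 CPM in D3DMSO (log2 fold change against D3DMSO -8.81 ± 0.83, adjusted p = 1.0e-07). Pax6 averaged 149 ± 8.2 CPM in D3RA and 0.769 ± 0.31 CPM in D3DMSO (log2 fold change against D3DMSO 7.52 ± 0.24, adjusted p = 2.3e-13), and Rarb averaged 263 ± 17 CPM in D3RA and 1.59 ± 0.23 CPM in D3DMSO (log2 fold change against D3DMSO 7.31 ± 0.14, adjusted p = 1.2e-15). Hoxa5 averaged 196 ± 14 CPM in D3RA and 8.35 ± 3.2 CPM in D3DMSO (log2 fold change against D3DMSO 4.62 ± 0.24, adjusted p = 6.3e-11). All 4 were called. Nanog, called lower in D3RA than in D3DMSO or D0, averaged 68.1 ± 24 CPM in D3DMSO. Of the core pluripotency network, 15 of 20 genes were called lower than in D3DMSO and 2 higher. Those higher were Sox2, with 147 ± 12 CPM in D3RA and 67.4 ± 11 CPM in D3DMSO (log2 fold change against D3DMSO 1.13 ± 0.16, adjusted p = 1.5e-05), and Lin28b. Sox2 thus lay below D0 and above D3DMSO. Of 18 streak and mesoderm genes, 14 were called lower than in D3DMSO and none was called higher, and T was among those lower (log2 fold change against D3DMSO -11.29 ± 0.46, adjusted p = 3.1e-12). Of 28 postmitotic neuron factors, 22 were called higher than in D3DMSO, and of 23 epithelial genes 20 were called lower. Serine, one-carbon and ATF4 genes were lower than in D3DMSO for 26 of 30, and glycolysis and hypoxia genes for 26 of 33, as set against 31.4% of all genes. D3RA enters both comparisons, so they are not separate evidence, and the values are given side by side.

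**Figure D5:**
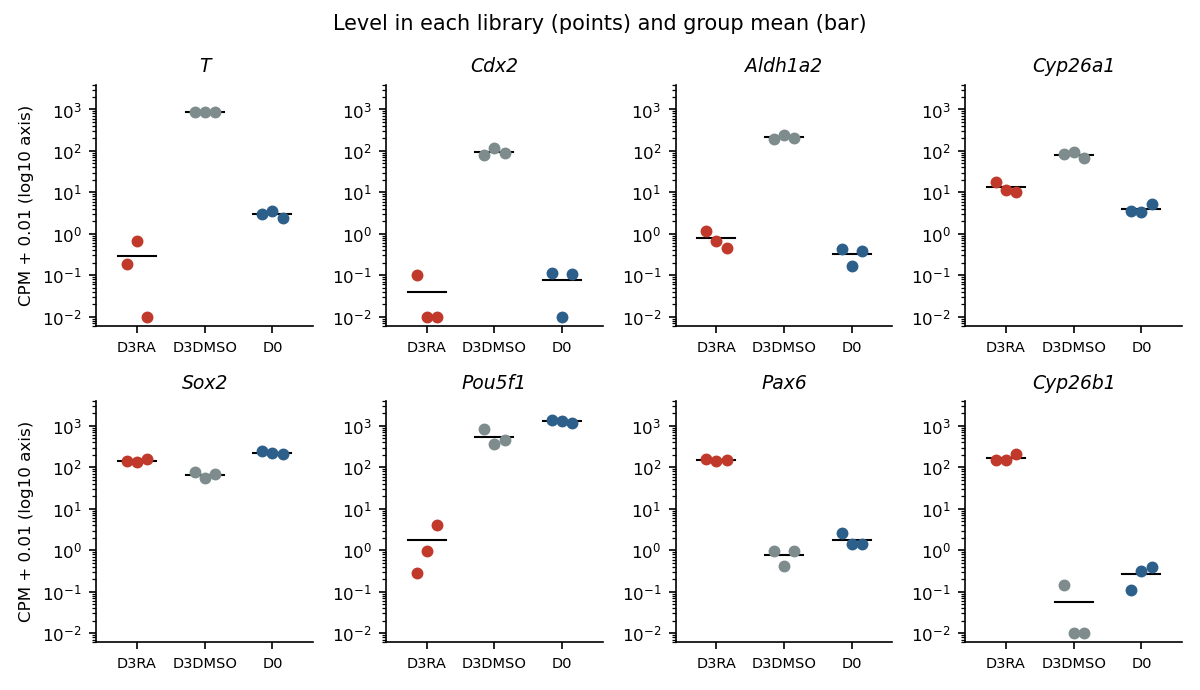
CPM of 8 genes in each library of D3RA (left), D3DMSO (middle) and D0 (right) on a log10 axis, with 0.01 CPM added. T, Cdx2, Aldh1a2 and Cyp26a1 lie highest in D3DMSO, and Sox2 lies lowest there.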

How the data were processed

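RNA was measured in 15 total-RNA libraries from a stranded kit with ribosomal RNA removal, read as single ends, per the labels' protocols. The submitters' processing notes name the build mm9 and the tools Trimmomatic 0.32, STAR 2.6.0c, featureCounts, edgeR and limma. The authors deposited log2 values for 14717 Ensembl genes. These proved to be log2 of a count plus 0.5 times 1 constant per library, so counts were recovered (100.0% of values whole within 0.05) and CPM computed on the authors' scaling. Because the 0.5 is not scaled, a count of 0 reads higher in a shallower library. Symbols were matched for 14228 genes. ChIP samples were not used here, and list genes outside the table were not analysed here.

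Groups came from the sample titles. The deposited log2 values were fitted with limma 3.58.1 (R 4.3.3), with a mean-variance trend and 1 mean for each of the 5 RNA groups (10 residual degrees of freedom). Each p was adjusted over all genes by the Benjamini-Hochberg method. Counts of genes used a filter of at least 1 CPM in 3 libraries, which removed none. Simulated data had 50 genes changed at each size. Of these, 41 were recovered at a log2 change of -1, 43 at 1, 47 at -2 and 50 at 2. Of 14517 unchanged genes, 72 were called, more than the genes recovered at any size. False calls were thus a larger share of the simulated calls than the adjusted p threshold of 0.05 allows. The simulation used a dispersion of 0.0018 and changed far fewer genes than were called in the real data. The share of false calls in the real data was not measured. Counting intervals are exact 95% intervals and cover counting error only.

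The 48 gene lists, the tests and the comparison were chosen with earlier results of these data known. Named genes were the design's markers, the 10 called genes with the greatest increase and the 10 with the greatest decrease at 10 CPM or more, and list members, chiefly the 4 at each end of a list at 1 CPM or more, and some genes so chosen are not reported here. Alternatives were other scalings, weights, filters, thinning, added counts, other sets of libraries, the replicate number as a block, and each library left out.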

Additional observations from a re-analysis of the deposited data

How the results depend on the processing

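The count of genes called ranged from 8138 (all libraries thinned to the smallest scaled library size) to 10186 (added count in proportion to library size) over the 17 alternatives, against 10147, and stayed within 1.5 times of it, as did the counts by direction and with at least 2-fold change. Leaving out 1 library gave 9606 to 10004 calls, and the fit of the D3RA and D0 libraries alone gave 9365. More genes were lower than higher under quantile normalization (4850 higher, 5206 lower) and with the proportional count (5073 higher, 5113 lower). At 2-fold or more, the excess of higher genes turned under quantile normalization (2124 higher, 2233 lower) and shrank with the proportional count (2283 higher, 2177 lower). The replicate numbers did not pair the libraries (correlations of same-numbered deviations 0.06, 0.02 and 0.05), and a fit with the replicate number as a block called 9516 genes. Of 11 genes with no count in any D3RA or D0 library, 9 were called higher, which follows from the unscaled 0.5. Of 244 called genes named here, 235 kept their call under all 17 alternatives and none turned direction. Thinning lost the calls of Nefh, Sox3, Hoxa9, En2, Dnmt1, Esrrb, Aldh1a2 and Mir302b, and Ptch1 lost its call without D0 replicate 2 or 3. The calls of Aldh1a2, Dnmt1 and En2 were also lost when D3RA and D0 were fitted by themselves, and with the replicate number as a block. Folds moved by over 1.5 times for 83 of the named called genes, 34 of them when 1 library was left out, mainly genes with few counts in 1 group. Among genes not called, the sign turned for Cdx2 (-0.53 thinned, -0.27 with the proportional count), Tbx6 (-0.081 with quantile normalization, -0.018 with the proportional count, and -0.053 to 0.56 with 1 library left out) and Snai1 (-0.76 to 0.27 with 1 library left out), and the cause was not tested. The 6-library fits hold no D3DMSO library and were not run for that comparison. Depth limits genes under about 1 CPM, where a few counts set the value.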

Other observations

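Changes were also seen outside the gene lists, and the genes named in this paragraph were chosen after their values were seen. Sst, the gene of the neuropeptide somatostatin, had 40.8, 32.9 and 42.5 CPM in D3RA and 0 counts in all 3 D0 libraries. Myct1, an endothelial-enriched gene, had 12.1, 9.77 and 11.9 CPM in D3RA and 0 counts in all 3 D0 libraries. Both were absent from every D0 library at this depth and present in every D3RA library. In the opposite direction, Trap1a, an X-linked tumour antigen gene, had 0 counts in all 3 D3RA libraries and 23.9, 23.4 and 18.7 CPM in D0, and Mup6, of the major urinary protein family, had 0 counts in all 3 D3RA libraries and 10.9, 10.7 and 9.17 CPM in D0. Reads of Mup6 may be shared with its near-identical family members, so its value is uncertain. Mir17hg, the host transcript of the miR-17 to miR-92 cluster, had 46.3, 44 and 39.7 CPM in D3RA and 17.2, 18.7 and 19.9 CPM in D0, higher in every D3RA library (log2 fold change 1.22 ± 0.12, adjusted p = 7.4e-08).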
